A study of Homo sapiens with 4 samples.

Results

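Epithelial-mesenchymal transition is the change by which epithelial cells loosen their junctions and take on properties of mesenchymal cells. It is driven by transcription factors of the SNAI, TWIST and ZEB families, which bind E-box motifs and repress E-cadherin and other epithelial genes, and it is read out by markers such as vimentin, fibronectin and N-cadherin. LNCaP is an androgen-responsive human prostate cancer line, set up from a metastasis in a lymph node, and is epithelial in character. The 10 genes described here were 6 such factors (SNAI1, SNAI2, TWIST1, TWIST2, ZEB1 and ZEB2) and 4 markers (VIM, FN1, CDH2 and CDH11). They were taken by their platform gene symbol and had 30 array features, of 43376 features with values and 18334 genes in all.

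Cells were serum starved for 24 h and then given 1 µM 5-azacytidine, a cytidine analogue that traps DNA methyltransferases, or its vehicle DMSO for 24 h or 48 h. RNA of treated cells in Cy5 and of vehicle cells of the same time in Cy3 shared each 2-colour Agilent array, and there were 2 arrays per time. Both sides had been starved, and each array gave 1 ratio. The dyes were not swapped on any array, so an effect of dye on a feature cannot be told apart from that of azacytidine. Results are given as the log2 ratio of azacytidine over DMSO, as mean ± SD with n = 2 arrays per time, and a gene's value is the mean over its features. The direction rests on the dyes in the labels and the base on the scanner software's convention. Were the deposited values log2 and not log10, the means below would be smaller (0.70 at 24 h and 0.87 at 48 h for SNAI1, 0.62 and 0.51 for VIM, and 0.47 and 0.10 for FN1), with the same calls. No spot intensities were analysed here, so levels cannot be ranked between genes. Labels do not say that replicates came from separate cultures, so p-values measure only how far these arrays spread, and that spread may be technical. Gene ratios of replicate arrays differed by a median of 0.13 at 24 h and 0.33 at 48 h, and the median of all genes was 0 at both times. A ratio from bulk RNA cannot tell more cells with a transcript from more transcript per cell.

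SNAI1 and VIM were the members that rose at both times, and FN1 rose at 24 h. These were 3 of the 10 genes at 24 h and 2 of the 10 at 48 h, by limma with Benjamini-Hochberg adjustment over all genes at a threshold of 0.05, and 0 of the 10 passed as lower at either time. Of all genes, 24.3% passed at 24 h (14.3% higher and 9.97% lower) and 38.8% at 48 h (18.2% higher and 20.7% lower). The median over the 10 genes was 0.26 at 24 h and 0.23 at 48 h, against 0 over all genes at each time. ZEB1 and ZEB2 were listed at exactly 0 on all arrays, as were 5.94% of all genes.

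**Figure D1:**
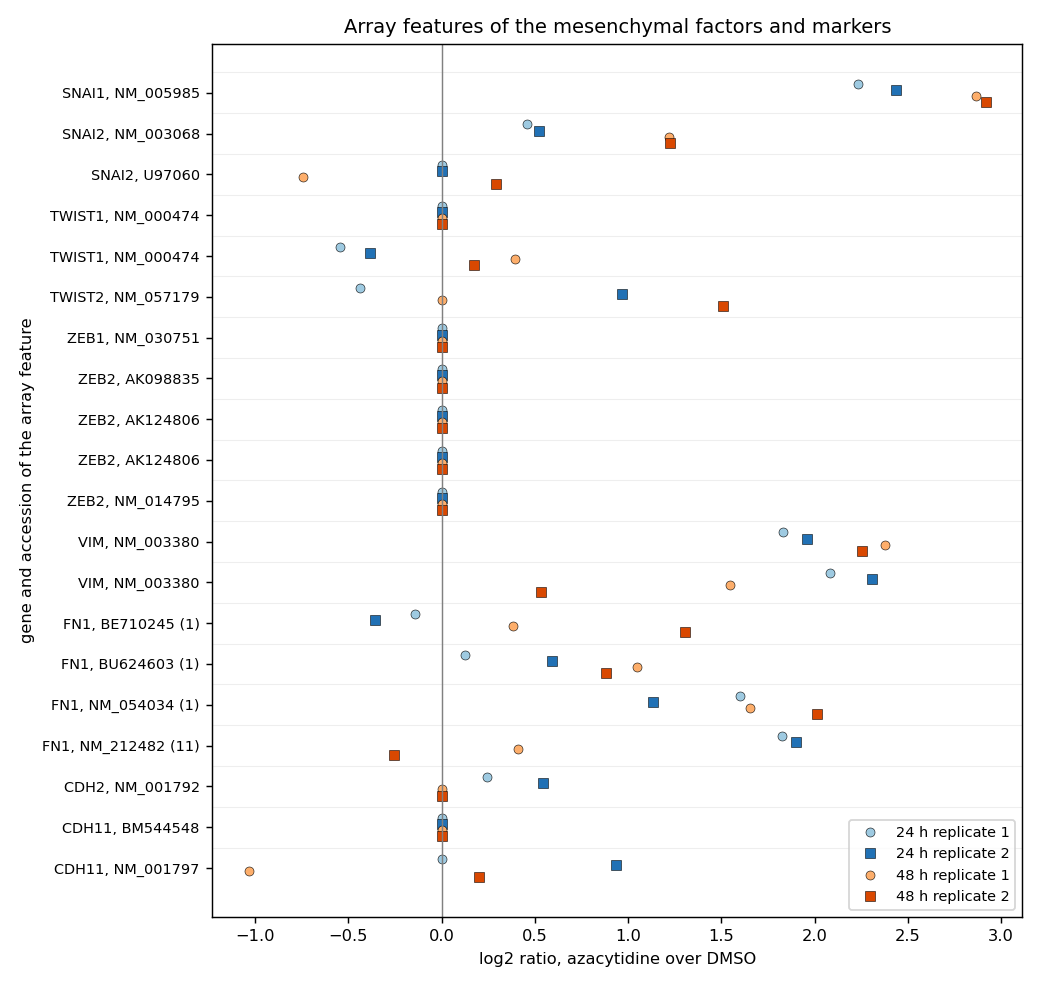
Log2 ratio of azacytidine over DMSO (x axis) of each array feature of the 10 genes (rows, by gene and accession), with the 11 FN1 features of one accession averaged in 1 row and their number in brackets. Circles and squares are replicates 1 and 2, blue is 24 h and orange is 48 h. SNAI1 lies at 2.23 and above on each array, whereas ZEB1, all 4 ZEB2 features, 1 TWIST1 feature and 1 CDH11 feature lie at 0.

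SNAI1 encodes Snail, a zinc finger repressor of E-cadherin that is often the first of these factors to be induced. Its single feature had log2 ratios of 2.23 and 2.44 at 24 h and of 2.87 and 2.92 at 48 h. Each array was thus well above 0, and the replicates lay close together. The mean was 2.34 ± 0.14 at 24 h, or 5.05-fold (limma adjusted p = 0.0131), and 2.89 ± 0.04 at 48 h, or 7.43-fold (limma adjusted p = 0.00714). Both 48 h arrays were above both 24 h arrays, but the difference of 0.56 ± 0.10 (SE) did not pass the limma test (adjusted p = 0.0539), and it was -0.19 with the arrays scaled to one spread. Of all genes, 23.0% passed the test of 48 h minus 24 h.

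SNAI2 encodes Slug, the closest relative of Snail, and its features differed. The feature of accession NM_003068 had log2 ratios of 0.46 and 0.52 at 24 h and of 1.22 and 1.22 at 48 h. The feature of accession U97060 was listed at 0 on both 24 h arrays and was at -0.74 and 0.29 at 48 h. Only the first of these was above 0 on all arrays, and its 48 h arrays lay above its 24 h arrays. Averaged over both features, SNAI2 was at 0.25 ± 0.02 at 24 h (limma adjusted p = 0.352) and at 0.50 ± 0.37 at 48 h (limma adjusted p = 0.108), so the gene did not pass at either time. Tested as single features, NM_003068 passed at 24 h (0.49, limma adjusted p = 0.0213), at 48 h (1.22, limma adjusted p = 0.00771) and in the difference (0.73, limma adjusted p = 0.0243), whereas U97060 passed in none. In that fit 21.4% of all named features passed at 24 h, 36.6% at 48 h and 23.9% in the difference. Without features that were at exactly 0 on any array, which leaves NM_003068 alone, the gene passed at both times and in the difference.

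TWIST1 and TWIST2 encode basic helix-loop-helix factors that specify mesoderm and repress E-cadherin. One TWIST1 feature was listed at 0 on all arrays. The other had log2 ratios of -0.55 and -0.38 at 24 h and of 0.39 and 0.17 at 48 h, so that its arrays were below 0 at 24 h and above 0 at 48 h. As a gene, TWIST1 was at -0.23 ± 0.06 at 24 h (limma adjusted p = 0.0729) and at 0.14 ± 0.08 at 48 h (limma adjusted p = 0.132). The difference of 0.37 ± 0.07 (SE) did not pass either (limma adjusted p = 0.0584). With quantile normalization TWIST1 passed as lower at 24 h (-0.32, limma adjusted p = 0.0447) and in the difference (0.50, limma adjusted p = 0.0412), and without the feature at 0 it passed in the difference (0.75, limma adjusted p = 0.0367). TWIST2 had log2 ratios of -0.44 and 0.97 at 24 h and of 0 and 1.51 at 48 h. Its replicates disagreed by more than 1 at each time, and the groups overlapped, with means of 0.27 ± 0.99 (limma adjusted p = 0.826) and 0.76 ± 1.07 (limma adjusted p = 0.416).

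ZEB1 and ZEB2 encode zinc finger and homeodomain repressors that are held down in epithelial cells by microRNAs of the miR-200 family. Neither the single ZEB1 feature nor any of the 4 ZEB2 features, from 3 accessions, had a ratio other than 0 on any array. Together with 1 feature each of TWIST1 and CDH11 they made 7 of the 30 member features at 0 throughout, or 23.3%, where 7.24% of all features with 1 gene symbol were so listed. No direction can be given for ZEB1 or ZEB2.

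Of the markers, VIM encodes vimentin, the main intermediate filament protein of mesenchymal cells. One of its features had log2 ratios of 1.83 and 1.96 at 24 h and of 2.38 and 2.25 at 48 h. The other had 2.08 and 2.31 at 24 h and 1.55 and 0.53 at 48 h. All of these were above 0, and the features differed more on both 48 h arrays than at 24 h, most on 48 h replicate 2. From 24 h to 48 h the first feature was higher by 0.42 and the second lower, at a difference of -1.15. Neither difference passed singly (limma adjusted p = 0.0649 and 0.164). The gene was at 1.96 and 2.13 on the 24 h arrays and at 1.96 and 1.39 on the 48 h arrays. Its mean was 2.05 ± 0.13 at 24 h, or 4.13-fold (limma adjusted p = 0.0233), and 1.68 ± 0.40 at 48 h, or 3.20-fold (limma adjusted p = 0.0205). The difference between times was -0.37 ± 0.26 (SE, limma adjusted p = 0.365). Tested singly, both features passed at 24 h (limma adjusted p = 0.0153 and 0.0457), and at 48 h the first passed (2.32, limma adjusted p = 0.00771) and the second did not (1.04, limma adjusted p = 0.105).

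FN1 encodes fibronectin, a matrix glycoprotein that is made as many splice forms and bound by integrins. Its 14 features came from 4 accessions. The 11 features of NM_212482 had log2 ratios from 1.64 to 2.08 (median 1.81) on 24 h replicate 1 and from 1.66 to 2.25 (median 1.90) on 24 h replicate 2. On the 48 h arrays they ranged from -0.26 to 0.52 (median 0.48) and from -0.35 to 0.10 (median -0.28). All 11 thus lay above 1.6 at 24 h. At 48 h they lay lower, between -0.35 and 0.52, and the medians of the replicates differed in sign.

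The remaining FN1 features did not share that pattern. NM_054034 had 1.60 and 1.13 at 24 h and 1.65 and 2.01 at 48 h. BU624603 had 0.13 and 0.59 at 24 h and 1.05 and 0.88 at 48 h. BE710245 was below 0 at 24 h, at -0.14 and -0.36, and above 0 at 48 h, at 0.39 and 1.31. All 3 had higher means at 48 h than at 24 h, opposite to NM_212482. None of the 3 passed singly in the difference between times (limma adjusted p = 0.270, 0.144 and 0.154 in that order). Tested singly, all 11 features of NM_212482 passed at 24 h (limma adjusted p from 0.0213 to 0.0444) and 0 of them at 48 h (from 0.660 to 0.961). Features of a gene share each array, so their number adds no replicates of the treatment. Probe sequences were not at hand, so whether some of the 11 repeat the same probe is not known here. NM_054034 passed at both times (limma adjusted p = 0.0414 and 0.0197), BU624603 at 48 h (0.0376) and BE710245 at neither (0.605 and 0.127).

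Averaged over its features, FN1 was at 1.55 and 1.59 on the 24 h arrays and at 0.54 and 0.10 on the 48 h arrays. The mean was 1.57 ± 0.03 at 24 h, or 2.96-fold (limma adjusted p = 0.0227), and 0.32 ± 0.31 at 48 h (limma adjusted p = 0.176). FN1 was the 1 member of 10 to pass in 48 h minus 24 h, at -1.25 ± 0.19 (SE, limma adjusted p = 0.0476), where 23.0% of all genes passed. That value is set by the 11 features of one accession. With accessions averaged first, FN1 was at 0.83 at 24 h (limma adjusted p = 0.0160) and at 0.93 at 48 h (limma adjusted p = 0.00943), and the difference was 0.10 (limma adjusted p = 0.353).

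**Figure D2:**
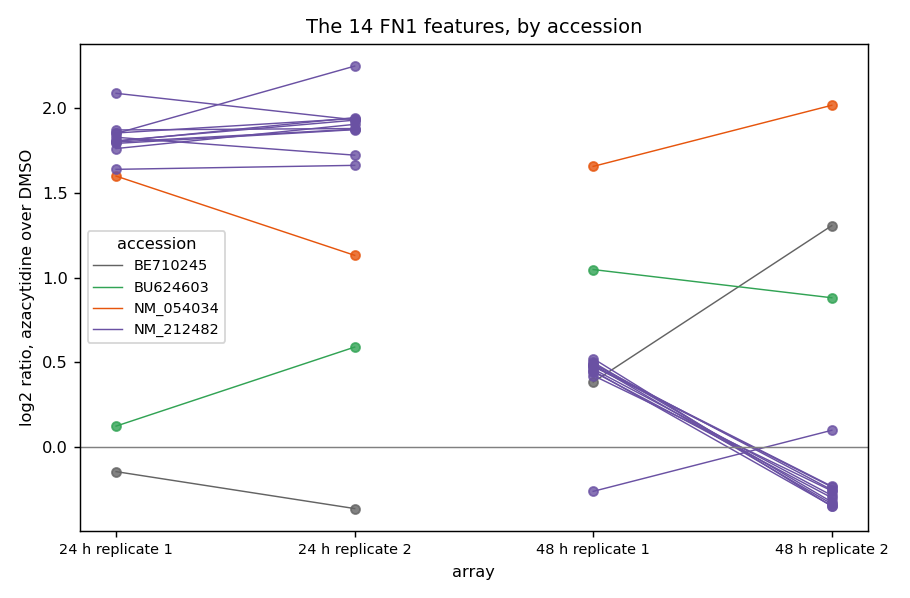
Log2 ratio of azacytidine over DMSO (y axis) of each of the 14 FN1 features on the 4 arrays (x axis), coloured by accession, with lines that join the replicates of a time. The 11 features of NM_212482 lie between 1.64 and 2.25 at 24 h and between -0.35 and 0.52 at 48 h, whereas NM_054034 stays above 1.1 on each array.

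CDH2 and CDH11 encode N-cadherin and cadherin-11, adhesion molecules of mesenchymal cells. The single CDH2 feature had log2 ratios of 0.24 and 0.54 at 24 h and was listed at 0 on both 48 h arrays. Its mean of 0.39 ± 0.21 at 24 h did not pass (limma adjusted p = 0.0857). One CDH11 feature was listed at 0 on all arrays, and the other had 0 and 0.94 at 24 h and -1.03 and 0.20 at 48 h. As a gene CDH11 was at 0.23 ± 0.33 at 24 h (limma adjusted p = 0.533) and at -0.21 ± 0.44 at 48 h (limma adjusted p = 0.554), with arrays of both signs at 48 h. For CDH1, E-cadherin, the repressed target of the SNAI and ZEB factors and a gene named outside the selection rule, the log2 ratios were 0.87 and 0.79 at 24 h and 0.77 and -0.05 at 48 h. Its 10 features lay close together on each array (0.71 to 0.93, 0.75 to 0.83, 0.73 to 0.82 and -0.11 to 0.04 in that order), and its means of 0.83 ± 0.05 and 0.36 ± 0.58 did not pass (limma adjusted p = 0.120 and 0.340).

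The calls at 24 h rest on both 24 h arrays. Without either of them limma called 0 of the 10 genes at 24 h (4 at an unadjusted p under 0.05 without replicate 1 and 3 without replicate 2) and 0 of all genes, and SNAI1, the member with the lowest p, then had an adjusted p of 0.200 without replicate 1 and 0.211 without replicate 2. The calls at 48 h also draw on the 24 h arrays, through the shared estimate of the spread. From the 48 h arrays alone limma called 0 of the 10 (2 at an unadjusted p under 0.05), with adjusted p = 0.0929 for SNAI1 and 0.116 for VIM. It also called 0 of all 18334 genes there (6313 at an unadjusted p under 0.05).

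RefSeq start windows, 250 bases before to 50 after a gene's start on GRCh38.p14, were at hand for 6 of the 10 genes and are shown for VIM and FN1, which rose at 24 h, and for ZEB2, which was listed at 0. 5-azacytidine acts on the methylation of CpG dinucleotides, which is not measured here. CpGs are in capitals, and each sequence is 5′ to 3′ on the gene's strand.
VIM, chr10:17227991-17228290, plus strand: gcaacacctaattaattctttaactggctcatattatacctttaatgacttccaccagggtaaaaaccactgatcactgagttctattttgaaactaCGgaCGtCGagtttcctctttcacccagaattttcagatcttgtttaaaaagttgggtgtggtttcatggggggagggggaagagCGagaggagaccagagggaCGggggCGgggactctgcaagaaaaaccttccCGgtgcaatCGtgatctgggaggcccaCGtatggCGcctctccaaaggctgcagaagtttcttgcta
FN1, chr2:215436019-215436318, minus strand: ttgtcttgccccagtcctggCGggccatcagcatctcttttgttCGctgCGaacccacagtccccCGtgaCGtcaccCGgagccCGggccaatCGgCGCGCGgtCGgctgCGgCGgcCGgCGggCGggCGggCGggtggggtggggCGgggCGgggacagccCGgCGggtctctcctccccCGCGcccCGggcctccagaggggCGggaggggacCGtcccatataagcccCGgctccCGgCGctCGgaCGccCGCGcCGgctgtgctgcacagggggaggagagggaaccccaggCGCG
ZEB2, chr2:144520070-144520369, minus strand: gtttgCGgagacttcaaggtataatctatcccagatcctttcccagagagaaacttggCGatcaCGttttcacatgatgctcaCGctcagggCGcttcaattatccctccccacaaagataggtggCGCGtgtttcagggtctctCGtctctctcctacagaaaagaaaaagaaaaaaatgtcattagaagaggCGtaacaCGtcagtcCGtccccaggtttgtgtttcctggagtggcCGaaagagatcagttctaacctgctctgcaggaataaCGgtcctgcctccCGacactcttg

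The VIM window held 10 CpGs, the FN1 window 38 and the ZEB2 window 14, where the median of all 35116 windows was 14. As many CpGs or more stood in 56.4% of all windows for VIM, in 9.91% for FN1 and in 50.3% for ZEB2. The TWIST2 window held 29, the CDH2 windows 4 and 23, and the 7 ZEB1 windows between 7 and 35. The E-box CAGGTG, read on both strands (CACCTG on the other), was in 2 of the 7 ZEB1 windows and in no window of the other 5 genes, against 20.6% of all windows. These letters are a description of the windows and not of binding.

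Genes with a pattern close to that of a member were sought for VIM and SNAI1, which passed at both times. By Euclidean distance over the 4 arrays, the nearest genes to VIM were SMAD9 (0.17) and LRG1 (0.17). For SNAI1 they were TMC5 (0.20) and ITLN2 (0.21). SMAD9 had log2 ratios of 1.96 and 2.02 at 24 h and of 1.85 and 1.43 at 48 h, and ITLN2 had 2.12 and 2.53 at 24 h and 2.78 and 3.03 at 48 h.

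Among 12 other transcription factors of the transition, 3 were higher and 2 lower at 24 h, and 3 were higher and 1 lower at 48 h. SOX9, at 2.07 ± 0.04 and 2.74 ± 0.09 at 24 h and 48 h (limma adjusted p = 0.0126 and 0.00714), moved like SNAI1 in direction, with 1 feature. The forkhead gene FOXQ1 was at 1.57 ± 0.31 and 2.64 ± 0.04 (limma adjusted p = 0.0228 and 0.00960), although its features were at -0.58 and 3.72 at 24 h. KLF8 and TCF3 were lower at 24 h, at -1.11 ± 0.14 and -1.03 ± 0.02 (limma adjusted p = 0.0197 and 0.0258), and did not pass at 48 h. Among 12 corepressors and stability regulators of the SNAI and ZEB factors, 2 were higher and 2 lower at 24 h, and 0 higher and 3 lower at 48 h. KDM1A, the demethylase LSD1 that Snail recruits, was at 0.75 ± 0.10 at 24 h and -1.87 ± 0.14 at 48 h (limma adjusted p = 0.0287 and 0.00844), with 1 feature.

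Among 19 other mesenchymal matrix and contractile genes, 8 were higher and 1 lower at 24 h, and 6 higher and 2 lower at 48 h, with medians of 0.79 and 0.43. Those higher at both times were CNN1, CNN2, CALD1, S100A4 and MMP9. The calponin gene CNN1 was at 2.75 ± 0.51 and 3.87 ± 0.48 (limma adjusted p = 0.0291 and 0.0137). S100A4 was at 1.26 ± 0.12 and 1.73 ± 0.22 (limma adjusted p = 0.0230 and 0.0114), and MMP9 at 1.03 ± 0.05 and 2.51 ± 0.34 (limma adjusted p = 0.0412 and 0.0104). ITGB1, the integrin chain through which cells bind fibronectin, was at 0.79 ± 0.08 at 24 h and -2.55 ± 0.10 at 48 h (limma adjusted p = 0.0209 and 0.00714). Of 9 other intermediate filament genes of non-epithelial cells, 2 were higher and 1 lower at 24 h, and 4 higher and 1 lower at 48 h. The neurofilament gene NEFH reached 4.05 ± 0.04 and 5.79 ± 0.49 (limma adjusted p = 0.0155 and 0.00762), above VIM at each time. CNN1, S100A4 and NEFH had 1 feature each. Of 15 other cadherins, 1 was higher and 1 lower at 24 h and 3 higher and 0 lower at 48 h, and 4 were listed at 0 on all arrays.

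Epithelial genes changed in both directions. Of 19 genes of epithelial junctions and keratins, 5 were higher and 1 lower at 24 h, and 4 higher and 5 lower at 48 h, with medians of 0.49 and 0.05. At 24 h these were 26.3% higher and 5.26% lower, against 14.3% and 9.97% of all genes. At 48 h they were 21.1% higher and 26.3% lower, near the 18.2% and 20.7% of all genes. The claudin genes CLDN4 and CLDN7 were higher at 24 h, at 1.55 ± 0.09 and 1.77 ± 0.11 (limma adjusted p = 0.0160 and 0.0163), and lower at 48 h, at -1.88 ± 0.17 and -1.34 ± 0.21 (limma adjusted p = 0.00888 and 0.0139). KRT19 was higher at both times, at 2.86 ± 0.01 and 4.35 ± 0.39 (limma adjusted p = 0.0163 and 0.00779). Of 10 regulators of the epithelial state, 4 were higher and 0 lower at 24 h, and 5 higher and 2 lower at 48 h. GRHL2, which maintains E-cadherin expression, was higher at both times, at 0.48 ± 0.08 and 1.53 ± 0.09 (limma adjusted p = 0.0347 and 0.00779). The 2 lower at 48 h were FOXA1 at -1.69 ± 0.73 and GRHL1 at -1.43 ± 0.29 (limma adjusted p = 0.0444 and 0.0230). Of 15 genes of the TGF-beta pathway, an inducer of SNAI1, 6 were higher and 0 lower at 24 h, and 6 higher and 3 lower at 48 h. The coreceptor gene TGFBR3 was at 1.32 ± 0.08 at 24 h and -2.50 ± 0.09 at 48 h, and SMAD4 was at 0.79 ± 0.14 and -1.81 ± 0.07 (limma adjusted p = 0.0146, 0.00714, 0.0241 and 0.00798 in that order). The ligand gene TGFB2 was at 1.15 ± 0.13 and 1.87 ± 0.14 (limma adjusted p = 0.0198 and 0.00888), with 1 of its 2 features at a mean of 0 at each time. CLDN4, CLDN7, KRT19, GRHL1 and TGFBR3 had 1 feature each.

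**Figure D3:**
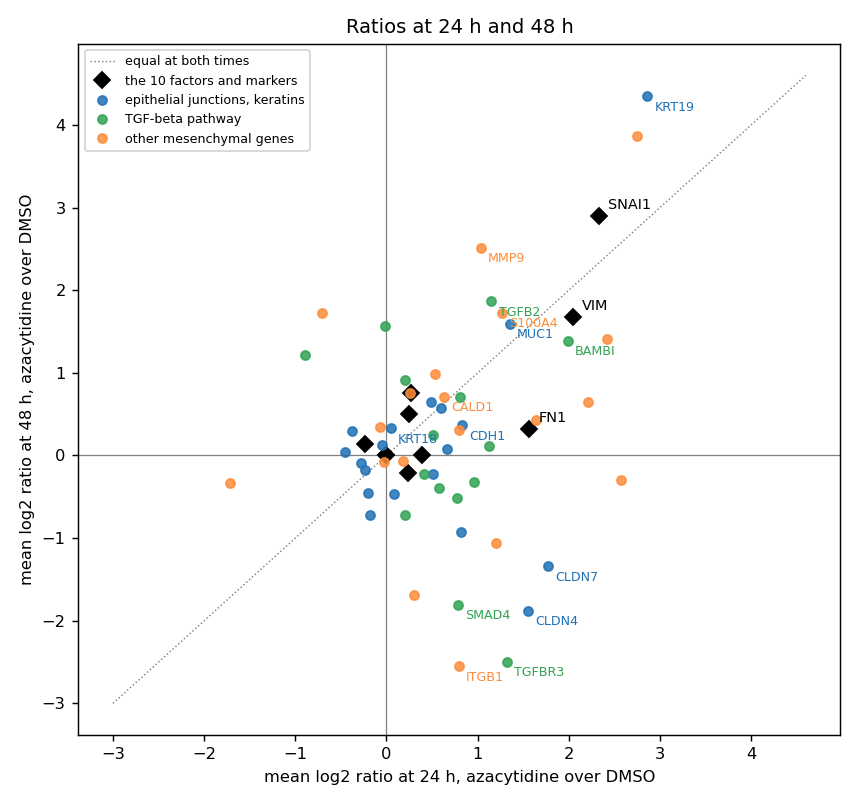
Mean log2 ratio of azacytidine over DMSO at 24 h (x axis) and 48 h (y axis) of the 10 factors and markers (black diamonds) and of genes of 3 lists (coloured points), with a dotted line where both are equal. SNAI1 and VIM lie in the upper right, FN1 at 1.57 and 0.32, and CLDN4, CLDN7, SMAD4, TGFBR3 and ITGB1 above 0 at 24 h and below 0 at 48 h.

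**Figure D4:**
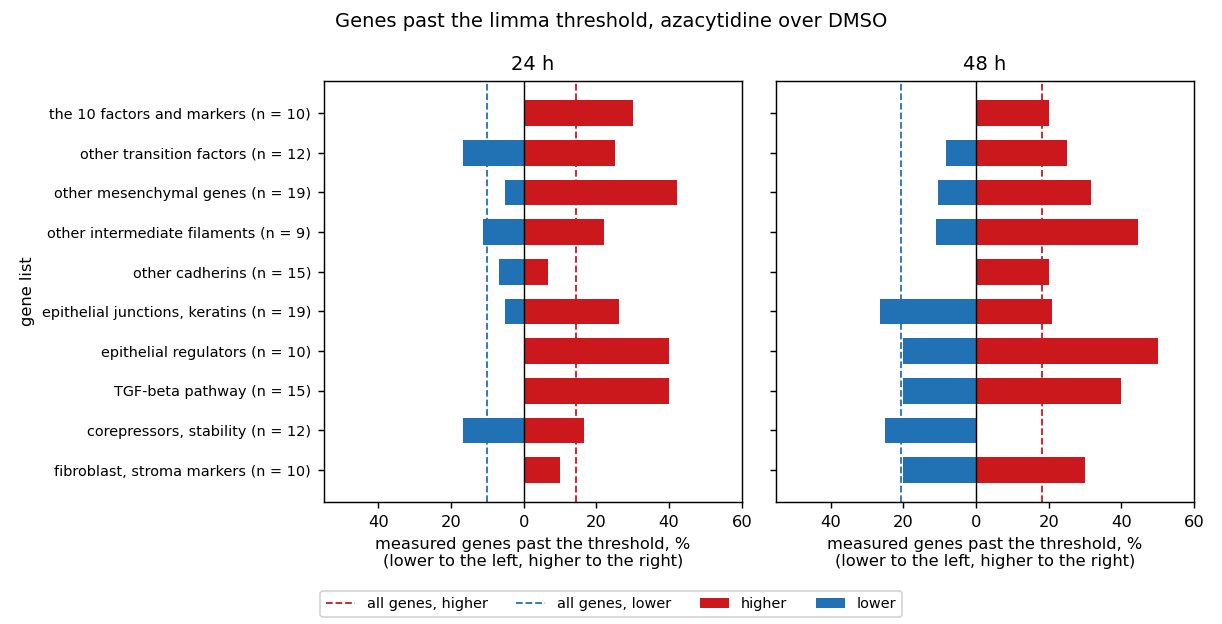
Percent of the measured genes of each list that passed the limma threshold at 24 h (left) and 48 h (right), with higher genes in red to the right of 0 and lower genes in blue to the left, and n the genes measured. Dashed lines are the percent of all genes, 14.3% higher and 9.97% lower at 24 h and 18.2% higher and 20.7% lower at 48 h.

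Markers of stromal cells, which express VIM and FN1 strongly, were also read. Of 10 fibroblast and stromal markers 1 was higher and 0 lower at 24 h, and 3 higher and 2 lower at 48 h. These were 10% and 0% at 24 h, against 14.3% and 9.97% of all genes. At 48 h they were 30% and 20%, against 18.2% and 20.7% of all genes. The list's median per array lay between -0.02 and 0.14. The 1 higher at 24 h was the collagen gene COL3A1, at 0.78 ± 0.02, and it was at 0.03 ± 0.05 at 48 h (limma adjusted p = 0.0151 and 0.588). Higher at 48 h were THY1 at 1.38 ± 0.63, PDGFRB at 0.97 ± 0.11 and COL6A3 at 0.46 ± 0.16 (limma adjusted p = 0.0478, 0.0339 and 0.0493 in that order), and the lower ones were LUM and DCN (-0.53 ± 0.19, limma adjusted p = 0.0381). FAP was listed at 0 on all arrays. COL1A1 was at -1.03 ± 0.08 at 24 h and 1.18 ± 0.59 at 48 h (limma adjusted p = 0.0879 and 0.0556), and LUM was at -0.34 ± 0.04 and -1.71 ± 0.14 (limma adjusted p = 0.0651 and 0.00813). Of 5 endothelial markers 1 was higher at 24 h and 0 at 48 h, and of 5 leukocyte markers 1 was higher at 24 h and 2 at 48 h, CD68 at both. Of 6 luminal LNCaP markers 1 was higher and 2 lower at 24 h, and 2 higher and 3 lower at 48 h. The part of any of these in the values of VIM and FN1 was not tested.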

How the data were processed

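The authors deposited 1 table of ratios for 4 arrays, made with Agilent Feature Extraction 8.5.1.1 per the submitters' processing notes. The software's settings are not given in the sources used here. Base and direction are not stated in the table. The deposited values were taken to be log10 ratios, Cy5 to Cy3, and multiplied by log2 of 10, to give log2 ratios from the deposited values. Each column had a median of 0, and no source says how it was centred. Of 45220 features, 43376 had values on all arrays and 1844 were blank. Features were named from the platform annotation, updated through gene identifiers to GRCh38.p14 symbols, and 31332 had 1 symbol, 93 several and 11951 none. The mean over the features of a symbol gave 18334 genes.

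The fit over all genes used limma 3.58.1 (R 4.3.3) and had 1 mean per time over all 4 arrays (2 residual and 0.735 prior degrees of freedom) and Benjamini-Hochberg adjustment over all genes at 0.05. Features were fitted likewise as an alternative. The fit was also run on simulated ratios with independent normal noise, which does not test the calls given here. The members and lists were chosen with earlier results of these data known. Of the listed genes 8 had no feature matched by 1 symbol and were not analysed here. Named were all members and, from each list, genes among the 4 with the lowest p at either time. For members past the threshold at both times, the 2 nearest genes were named. CDH1, CNN1, CNN2, COL1A1, COL6A3, THY1, FAP, FOXA1 and GRHL1 were named outside that rule after their values were seen. Start windows are RefSeq's. Precision is limited by the number of arrays. Figures used matplotlib 3.10.9.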

Additional observations from a re-analysis of the deposited data

Results flagged for a closer look

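FN1 differed between the times, with a log2 ratio at 48 h minus 24 h of -1.25 by the limma test of the difference (adjusted p = 0.0476). All 11 features of NM_212482 had lower means at 48 h than at 24 h, and 1 of them passed singly (limma adjusted p = 0.0311). That feature was at -0.26 and 0.10 on the 48 h arrays. The remaining features of NM_212482 had the opposite signs there, above 0 on replicate 1 and below 0 on replicate 2. The features of the other 3 accessions had higher means at 48 h, and none of them passed singly in the difference.

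TWIST1 was below 0 on both 24 h arrays and above 0 on both 48 h arrays. The difference of 0.37 did not pass the limma test (adjusted p = 0.0584), but did with quantile normalization (0.50, adjusted p = 0.0412) and without features at 0 (0.75, adjusted p = 0.0367). It rests on 1 of 2 features, since the other was listed at 0 throughout.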

How the results depend on the processing

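The precision of each value is limited by 2 arrays per time. Of the 10 genes, 3 passed at 24 h, 2 at 48 h and 1 in the difference, and leaving out each array in turn gave 0 to 4, 0 to 3 and 0 to 2. With the replicate number as a term (replicate block), limma called 0 at 24 h, 0 at 48 h and 0 in the difference, and 4, 3 and 4 had an unadjusted p under 0.05. Labels do not pair the numbers, and the deviations of same-numbered arrays correlated at r = -0.03 across genes. At 48 h, 1 passed with the arrays scaled to one spread, 0 from the 48 h arrays alone and 4 with features in place of genes. In the difference, 0 passed with the median of features (3 at an unadjusted p under 0.05), 0 with accessions averaged first (2) and 0 with robust variance moderation (3), while 2 passed with quantile normalization, 3 without features at 0 and 2 with single features. The FN1 difference turned to 0.10 with accessions averaged first, which gives the 11 features of NM_212482 the weight of 1. The SOX9 difference was -0.0067 after scaling, against 0.67, and the cause was not tested.

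SNAI1 and VIM kept their sign in all alternatives at both times, but in 3 of 14 at 24 h neither passed, and at 48 h SNAI1 did not pass in 4 of 14 and VIM in 5 of 14. Adjusted p ranged from 0.00159 to 0.211 for SNAI1 at 24 h and from 7.06e-04 to 0.0929 at 48 h. For VIM it ranged from 0.00356 to 0.235 and from 0.00312 to 0.116. Without 48 h replicate 1, SNAI2 passed at 48 h (0.76, adjusted p = 0.0223), and without 48 h replicate 2, FN1 did (0.54, adjusted p = 0.0398). Of all genes, 4446 passed at 24 h, 7116 at 48 h and 4211 in the difference. At 24 h the count was 7516 with scaling, 7387 with quantile normalization and 0 with the block (6503 at an unadjusted p under 0.05). At 48 h it was 0 with the block (8152) and 0 from the 48 h arrays alone (6313). In the difference it was 6620 with scaling, 6879 with quantile normalization, 7361 without features at 0, 2609 with robust moderation, 0 with the block (7063 unadjusted), 0 without either 24 h array (3809 and 3821) and 7786 without 48 h replicate 1. Quantile normalization gave 3673 higher and 3206 lower there, against 1802 and 2409. Of the 36 list counts, 34 moved by over 1.5 times with the block or without either 24 h array, 15 or fewer in any other setting. The values read as log2 changed no call but made each log2 ratio smaller, for example 0.70 against 2.34 for SNAI1 at 24 h.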
